A study of Mus musculus with 9 samples.

Results

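The BCL2 family sets whether a cell under stress keeps its mitochondria intact or releases their contents and dies. The 10 genes followed here were measured in bone marrow-derived macrophages (Mϕs): the pro-survival genes Bcl2, Bcl2l1, Mcl1, Bcl2a1a, Bcl2a1b and Bcl2a1d, the pore-forming effectors Bax and Bak1, and the BH3-only genes Bcl2l11 and Bid. They were chosen by name, as the rows of the deposited table whose gene identifier belongs to one of these symbols, which gave 10 of 53379 genes. All 10 had a mean of at least 0.5 FPKM (fragments per kilobase of exon per 1000000 mapped fragments) over the libraries and were among the 12824 genes tested.

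Bone marrow cells of 3 wild-type C57BL/6 mice were grown for 3 days in 10 ng/ml MCSF (CSF-1, the growth factor on which Mϕs depend). They then received, for 4 days, 10 ng/ml MCSF alone (Control), MCSF with 10 ng/ml IL-4, or MCSF with 100 ng/ml IL-6, with 3 libraries (#1 to #3) in each group. MCSF was therefore present in every group. The doses and times are those of the labels. The study's methods give another dose of IL-4, and its figure legends give other cytokine doses and a shorter treatment. The ages and sexes of the marrow donors are not given in the sources used here, and each library is 1 culture of unsorted marrow cells.

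Pro-survival proteins hold the effectors in check by binding them and the BH3-only proteins. BH3-only proteins bind the pro-survival proteins, and some also activate the effectors, which then perforate the outer mitochondrial membrane and let cytochrome c out. MCL1 turns over quickly and is needed for the survival of many blood cells, A1 (encoded by the Bcl2a1 copies) is a short-lived protein of myeloid and lymphoid cells whose gene responds to inflammatory signals, and BIM (Bcl2l11) is raised when a growth factor is withdrawn. Only transcripts were measured here, not proteins.

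Bcl2a1 exists in the mouse as several near-identical copies, so the values of its rows need the sequences beside them. The 519-base coding sequences of Bcl2a1a and Bcl2a1b were 97.9% identical with 11 bases different, those of Bcl2a1a and Bcl2a1d 98.7% with 7 different, and those of Bcl2a1b and Bcl2a1d 98.8% with 6 different. Only 12 coding positions separated the 3 copies at all. Of the 50-base stretches of their transcripts, 69% in Bcl2a1a, 79.2% in Bcl2a1b and 79.5% in Bcl2a1d occurred unchanged in another gene, against 8.51% in Bax and at most 0.135% in the other 6 members. The first 60 coding bases, which lie in exon 1, are shown because they hold 6 of the differing positions, given in capitals. In GRCm38 they are at chr9:88957051-88957110 on the plus strand (Bcl2a1a), chr9:89199360-89199419 on the plus strand (Bcl2a1b) and chr9:88731660-88731719 on the minus strand (Bcl2a1d).
Bcl2a1a: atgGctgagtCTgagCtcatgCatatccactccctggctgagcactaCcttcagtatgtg
Bcl2a1b: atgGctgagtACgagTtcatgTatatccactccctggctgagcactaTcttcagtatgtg
Bcl2a1d: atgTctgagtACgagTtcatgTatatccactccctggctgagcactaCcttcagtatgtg
How the authors' counting treated fragments that match several of these copies is not given in the sources used here. Both the split among the 3 rows and their total are therefore uncertain. Their sum is given as well, and it sets aside only the split. The predicted gene Gm29094 also overlaps Bcl2a1b on the genome.

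The start regions of the copies were as alike. They are shown because the 3 rows moved together with IL-4, each as 250 bases before and 50 after the RefSeq start (GRCm38.p6), with bases that differ among the copies in capitals. They lie at chr9:88956670-88956969 on the plus strand (Bcl2a1a), chr9:89199023-89199322 on the plus strand (Bcl2a1b, whose annotated start lies further downstream in the shared sequence) and chr9:88731801-88732100 on the minus strand (Bcl2a1d).
Bcl2a1a: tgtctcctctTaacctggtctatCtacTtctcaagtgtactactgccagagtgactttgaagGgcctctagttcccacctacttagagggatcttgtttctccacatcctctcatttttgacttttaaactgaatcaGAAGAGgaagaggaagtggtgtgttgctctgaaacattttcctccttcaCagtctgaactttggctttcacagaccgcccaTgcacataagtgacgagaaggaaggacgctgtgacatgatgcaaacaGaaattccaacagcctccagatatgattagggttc
Bcl2a1b: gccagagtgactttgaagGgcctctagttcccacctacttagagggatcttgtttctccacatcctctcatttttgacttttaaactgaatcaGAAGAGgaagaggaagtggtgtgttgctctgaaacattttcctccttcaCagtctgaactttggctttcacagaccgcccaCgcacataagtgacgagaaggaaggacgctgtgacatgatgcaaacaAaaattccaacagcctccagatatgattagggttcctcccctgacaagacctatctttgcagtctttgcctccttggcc
Bcl2a1d: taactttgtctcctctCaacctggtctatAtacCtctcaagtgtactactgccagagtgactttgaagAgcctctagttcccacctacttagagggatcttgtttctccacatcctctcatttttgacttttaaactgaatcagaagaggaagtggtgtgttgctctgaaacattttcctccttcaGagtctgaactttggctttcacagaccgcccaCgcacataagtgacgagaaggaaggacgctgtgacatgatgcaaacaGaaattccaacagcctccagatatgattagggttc
Over the bases paired in the alignment, Bcl2a1a and Bcl2a1b were 99.2% identical, Bcl2a1a and Bcl2a1d 98%, and Bcl2a1b and Bcl2a1d 98.8%, and Bcl2a1d lacks 6 bases that the others have. These windows, and those of the other members except Bcl2l1, held no STAT motif (TTCNNNGAA), no STAT6-type motif (the same with 1 more N) and no kappa B motif on either strand. Bcl2l1, with several annotated starts, held 1 STAT6-type and 1 kappa B match. Over 32851 promoters of the same length, 8.3% held the STAT motif, 6.95% the STAT6-type motif and 4.51% the kappa B motif. These are matches of letters, and nothing was measured on binding.

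The libraries held 29988160 to 39909571 fragments, read back from the FPKM steps. Arg1, an IL-4 response gene, was higher with IL-4 (log2 fold change 10.58, limma adjusted p = 1.955e-06) and Socs3, an IL-6 response gene, was higher with IL-6 (5.12, adjusted p = 3.022e-05), as the labels say. The 7 Mϕ markers (such as Adgre1, Csf1r and Cd68) were above 0 in every library and summed to 25530 to 28350 fragments per 1000000 in Control, 10330 to 10530 with IL-4 and 30430 to 32060 with IL-6. Lyz2 had the highest level of the 7 per length in every library, and not all followed the sum: Cd68 was lower with IL-6 (933.7 to 967.6 FPKM) than in Control (1311 to 1642), and Itgam was at 37.22 to 72.3 FPKM with IL-4 against 33.72 to 36.82 in Control. Library IL-4 #3 stood apart from the other IL-4 libraries. Its genes with over 4 kb of exon were lower (median log2 difference from the other IL-4 libraries -0.76). Those of 1 to 2 kb were higher (0.486), and those under 1 kb less so (0.207). All Control libraries and IL-4 #1 also carried transcripts of intestinal genes (1123 to 1472 fragments over 22 genes), while IL-4 #2, IL-4 #3 and all IL-6 libraries carried 3 to 8 fragments. These 2 sets of libraries coincide with Control and IL-6, so between those groups set and cytokine cannot be told apart, whereas IL-6 can be compared with IL-4 #2 and #3 within 1 set.

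Per kilobase of exon, Mcl1 was the highest member in Control (mean 239.2 FPKM), above Bcl2a1b (96.1), Bax (79.4) and Bak1 (29.8). Bcl2l11 (17.1), Bcl2l1 (12.9), Bid (10.8) and Bcl2a1d (10.6) followed, and Bcl2a1a (1.56) and Bcl2 (0.703) were lowest. The libraries of Bcl2a1b and Bax overlapped in this order, as did those of each neighbouring pair from Bcl2l11 to Bcl2a1d and those of Bcl2a1a and Bcl2. Mcl1 was also highest with IL-6, ahead of Bax and Bcl2a1b, while with IL-4 the mean of Bcl2a1b (214.2 FPKM) stood above that of Mcl1 (173.6) with overlapping libraries. That order of the means rests on IL-4 #3, since Mcl1 was above Bcl2a1b in IL-4 #1 (188.5 against 143.6 FPKM) and level with it in IL-4 #2 (176.1 against 178.5). Bcl2 was the lowest of the 10 in every group. The places of the Bcl2a1 rows in these orders rest on their uncertain counting.

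**Figure D1:**
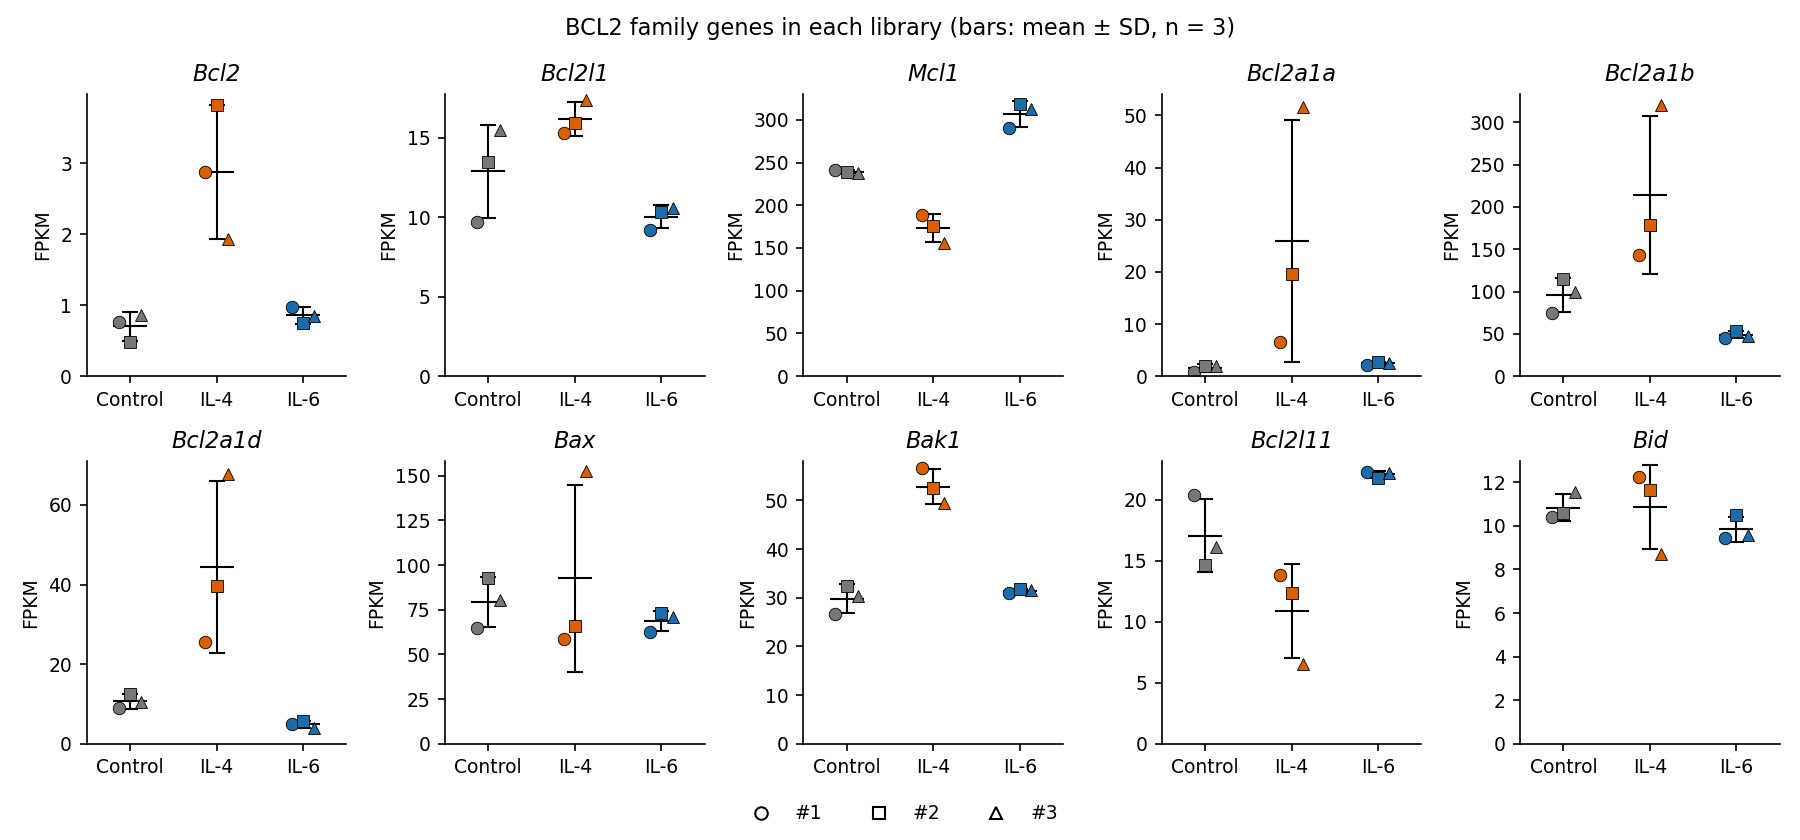
FPKM (linear axes from 0) of each member in the 9 libraries, with 1 panel per gene. Symbols mark libraries #1 to #3 and bars the mean and SD of 3. The 3 Bcl2a1 rows, Bcl2 and Bak1 sit above Control in all IL-4 libraries, Mcl1 sits below, and Bax reaches 152.7 FPKM in IL-4 #3 alone.

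The first comparison asked which members differed between IL-4 and MCSF alone. With IL-4, Bcl2, the 3 Bcl2a1 copies and the effector Bak1 were higher and Mcl1 was lower. Thus 6 of 10 members passed (limma on log2(FPKM + 0.1), Benjamini-Hochberg adjusted p under 0.05 over all genes tested), 5 higher and 1 lower, against 24.8% of all genes tested, of which 8.55% were higher and 16.3% lower. The 3 Bcl2a1 rows share most of their sequence, so they are not separate observations in the counts and medians of members, here and below. The median log2 fold change of the members was 0.59, beside -0.20 for all genes tested. Rescaling each library by its median ratio, which sets the median of all genes to about 0 by construction, changed the split over all genes from 1096 higher and 2090 lower to 1571 and 1606. Without IL-4 #3 and with no rescaling, that median was -0.07, with 1967 genes higher and 2881 lower. Libraries of the 2 groups did not overlap for 5 members that were higher and 2 that were lower, against 40.3% of all genes (13.5% higher and 26.8% lower). Such members reach an exact two-sided permutation p of 0.1, the smallest that 3 libraries against 3 allow, in each comparison below as well.

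Bcl2, the founding member of the family, was at 0.770, 0.477 and 0.862 FPKM in Control #1 to #3 and at 2.88, 3.82 and 1.93 in IL-4 #1 to #3. Every IL-4 library stood above every Control library, at a mean 4.09 times as high. The log2 fold change was 1.87 (SE 0.295, adjusted p = 0.00264), and 2.12 without IL-4 #3. The sum of the markers of T and NK cells, a lineage that uses Bcl2, was low but higher with IL-4 as well. All 6 of 6 were above 0, and their sum was 1.35 to 1.77 fragments per 1000000 in Control, 4.89 to 7.26 with IL-4 and 2.29 to 3.37 with IL-6. Cd3e in IL-4 #3 (0.0614 FPKM) lay below Control #1 (0.0702). Ncr1 in IL-4 #2 and #3 (0.0643 and 0.0488) also lay below Control #1 (0.0744). The other markers of this list lay above Control in all IL-4 libraries. The B cell markers, also lymphoid, had larger sums and were not higher with IL-4. They were at 57.27 to 93.84 fragments per 1000000 in Control, 54.04 to 58.4 with IL-4 and 42.54 to 70 with IL-6. The part of either list in the result was not tested. In bulk RNA, more cells of a type and more RNA per cell cannot be told apart.

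The Bcl2a1 copies rose together with IL-4. Bcl2a1b, the most abundant row, was at 75.0, 114.3 and 98.9 FPKM in Control and at 143.6, 178.5 and 320.3 with IL-4. Its IL-4 libraries were all above Control, with IL-4 #3 highest (log2 fold change 1.09, SE 0.290, adjusted p = 0.0268). Bcl2a1d was at 8.90, 12.5 and 10.4 FPKM in Control and at 25.5, 39.7 and 67.9 with IL-4, again with IL-4 #3 highest (1.95, SE 0.331, adjusted p = 0.00380). Bcl2a1a, with only 21 to 55 fragments per Control library, was at 0.735, 2.04 and 1.91 FPKM there and at 6.64, 19.6 and 51.7 with IL-4. Its spread among the IL-4 libraries was the widest of the 10 members in relation to its mean (log2 fold change 3.64, SE 0.681, adjusted p = 0.00604).

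Summed over the 3 rows, the Bcl2a1 copies were at 84.7 to 128.8 FPKM in Control (mean 108.2 ± 22.2, SD, n = 3), at 175.7 to 439.9 with IL-4 (284.5 ± 138.1) and at 52.3 to 61.8 with IL-6 (56.2 ± 4.97). The groups were thus separate also when the split among copies was set aside. Within that sum Bcl2a1b held 88.6 to 88.9% in Control, 72.8 to 81.7% with IL-4 and 86.3 to 88.1% with IL-6. Bcl2a1a held 0.868 to 1.72%, 3.78 to 11.7% and 4.01 to 4.67%, so the composition over the near-identical rows was not the same in the 3 groups. Without IL-4 #3 the log2 fold changes with IL-4 were 0.76, 1.59 and 2.91 for Bcl2a1b, Bcl2a1d and Bcl2a1a, and all 3 still passed. With the library set as a term they were 0.60, 1.27 and 2.14, and none of the 3 passed (adjusted p = 0.369, 0.0592 and 0.0867). Neutrophils also express Bcl2a1. The sum of their 10 markers (such as S100a8, Elane and Ngp), all above 0 in every library, went the other way with IL-4. It was at 3779 to 6653 fragments per 1000000 in Control, 1650 to 2714 with IL-4 and an overlapping 6177 to 8667 with IL-6. S100a9 had the highest level of the 10 per length in every library. With IL-6, S100a8, Prtn3 and Ltf lay above Control and the others overlapped it. Among these, Retnlg had lower values (95.05, 165.5 and 195.2 FPKM, against 181.5, 349.7 and 320.4 in Control). The mast cell and basophil markers were higher with IL-4, at 61.7 to 101.6 fragments per 1000000 against 17.2 to 37.2 in Control and 7.78 to 29.7 with IL-6, with 5 of 6 above 0 and Mcpt4 at 0. Their part in the result was not tested.

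Mcl1 was at 241.3, 238.4 and 238.1 FPKM in Control, the tightest member of the family there, and at 188.5, 176.1 and 156.2 with IL-4. All IL-4 libraries were below Control (log2 fold change -0.47, SE 0.113, adjusted p = 0.0176). The call was lost after median-ratio rescaling (-0.26, adjusted p = 0.152), with the library set as a term (-0.34, adjusted p = 0.220), in a fit of those 2 groups only (adjusted p = 0.0846), and when any 1 Control library was left out (0.0549 to 0.0667). It held after quantile normalization (-0.70, adjusted p = 0.0258), with length and GC trends removed (-0.33, adjusted p = 0.0269) and without IL-4 #3 (-0.39, adjusted p = 0.00743).

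Bcl2l1, which encodes BCL-XL, was at 9.71, 13.5 and 15.5 FPKM in Control and at 15.3, 15.9 and 17.4 with IL-4. Control #3 overlapped the IL-4 libraries, and the difference did not pass (log2 fold change 0.35, 95% interval -0.05 to 0.75, adjusted p = 0.186).

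Of the effectors, Bak1 was higher with IL-4 and Bax did not pass. Bak1 was at 26.6, 32.5 and 30.3 FPKM in Control and at 56.6, 52.5 and 49.5 with IL-4, with little spread in either group. Its log2 fold change was 0.83 (SE 0.111, adjusted p = 0.00107), the smallest SE of the 10 members, and it passed with each library left out in turn. Bax was at 65.0, 92.5 and 80.6 FPKM in Control and at 58.9, 65.9 and 152.7 with IL-4. IL-4 #1 and #2 lay near or below the lower end of Control while IL-4 #3 lay above all (0.10, 95% interval -0.67 to 0.87, adjusted p = 0.855), and without IL-4 #3 the value was -0.33 (adjusted p = 0.124). Bak1 therefore made up 49.0 and 44.3% of the summed Bax and Bak1 FPKM in IL-4 #1 and #2, but 24.5% in IL-4 #3, against 26.0 to 29.0% in Control.

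Neither BH3-only member passed with IL-4. Bcl2l11 was at 20.4, 14.7 and 16.1 FPKM in Control and at 13.8, 12.3 and 6.50 with IL-4. All IL-4 libraries were below Control, IL-4 #3 by the most (log2 fold change -0.70, 95% interval -1.32 to -0.08, adjusted p = 0.0942). Without IL-4 #3 the value was -0.37 (adjusted p = 0.0674), and the call was gained when IL-4 #1 was left out (-0.91, adjusted p = 0.0430) or length and GC trends were removed (-0.45, adjusted p = 0.00537). Bid, which caspase-8 cleaves to link death receptors to mitochondria, was at 10.4, 10.6 and 11.6 FPKM in Control and at 12.3, 11.6 and 8.69 with IL-4, with overlapping libraries (-0.01, adjusted p = 0.962).

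The direction of IL-4 #3 followed the members' length in part. Genes with under 1 kb of exon, the class of the 3 Bcl2a1 rows, had a median log2 difference of 0.207. The rows themselves reached 320.3 (Bcl2a1b), 67.9 (Bcl2a1d) and 51.7 FPKM (Bcl2a1a). Their next highest values with IL-4 were 178.5, 39.7 and 19.6 FPKM. With length and GC trends removed, the log2 fold changes with IL-4 were 1.18 (Bcl2a1b), 2.03 (Bcl2a1d) and 3.72 (Bcl2a1a), and all 3 passed. The part of length in the values of these rows in IL-4 #3 alone was not tested. In that library the 4 members with the least exon (Bcl2a1b with 817 bases, Bcl2a1a with 819, Bcl2a1d with 863 and Bax with 1576) and Bcl2l1 (4586) were the highest of the IL-4 group, and the other 5 members, with 2407 to 9157 bases, were the lowest. When the library set was a term, which rests on IL-4 #1 against IL-4 #2 and #3, 2 members still passed with IL-4, Bcl2 (1.92, adjusted p = 0.0341) and Bak1 (0.93, adjusted p = 0.00921). Without IL-4 #3 the same 6 members passed as with it. IL-4 #1, in the same set as Control, lay above every Control library for each of the 5 members that were higher and below for Mcl1.

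The second comparison asked the same for IL-6, the cytokine of interest in the study. No member passed. Mcl1 had higher values, and Bcl2a1b and Bcl2a1d lower values, in all 3 IL-6 libraries than in Control. The count was 0 of 10 by limma on log2(FPKM + 0.1) against 8.4% of all genes tested (4.58% higher and 3.82% lower), 0 by limma voom on the fragments, and 3 at an unadjusted p under 0.05, and the median log2 fold change was -0.03 beside -0.00 for all genes. Libraries did not overlap for 3 members with higher and 2 with lower values, against 43.2% of all genes (20% higher and 23.2% lower).

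Mcl1 was at 289.9, 318.8 and 312.9 FPKM with IL-6, all above the 238.1 to 241.3 of Control, a mean 1.28 times as high. The log2 fold change was 0.36 (95% interval 0.10 to 0.62, adjusted p = 0.0998). Bcl2a1b was at 45.2, 53.5 and 48.0 FPKM with IL-6, all below its lowest Control library at 75.0 (-0.95, 95% interval -1.62 to -0.29, adjusted p = 0.0916). Bcl2a1d was at 5.05, 5.64 and 3.96 FPKM, below its lowest Control library at 8.90 (-1.10, 95% interval -1.86 to -0.34, adjusted p = 0.0886). These calls turned on IL-4 #3, which enters only through the spread that all 9 libraries share. Without it the fold changes stayed as they were and the adjusted p-values became 0.0113 for Mcl1, 0.00514 for Bcl2a1b and 0.00766 for Bcl2a1d, so that 3 members passed. When the library set was a term none passed (adjusted p = 0.221, 0.132 and 0.0716).

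Bcl2a1a was not lower with IL-6 than in Control, and a difference between it and its copies was not tested. It was at 2.10, 2.66 and 2.54 FPKM with IL-6, just above its highest Control library at 2.04, on 60 to 71 fragments (log2 fold change 0.72, 95% interval -0.84 to 2.28, adjusted p = 0.620). With the library set as a term its log2 fold change was -1.53, beside -1.69 for Bcl2a1b and -2.13 for Bcl2a1d, and none passed. Bcl2 was at 0.974, 0.746 and 0.850 FPKM, overlapping Control (0.28, adjusted p = 0.657). Bcl2l1 was at 9.21, 10.3 and 10.6 FPKM, also overlapping (-0.33, 95% interval -0.73 to 0.07, adjusted p = 0.333).

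None of the effectors and BH3-only members passed with IL-6. Bak1 was at 31.0, 31.8 and 31.6 FPKM, inside the Control range, and the interval of its log2 fold change (-0.17 to 0.34) did not reach the size seen with IL-4. Bax was at 62.3, 73.1 and 70.7 FPKM (-0.20, 95% interval -0.97 to 0.57) and Bid at 9.42, 10.5 and 9.58 (-0.14, 95% interval -0.48 to 0.20). Bcl2l11 was at 22.3, 21.7 and 22.2 FPKM, which is above all Control libraries with a very small spread among the IL-6 libraries (SD 0.296), and did not pass (0.38, 95% interval -0.23 to 1.00, adjusted p = 0.491).

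**Figure D2:**
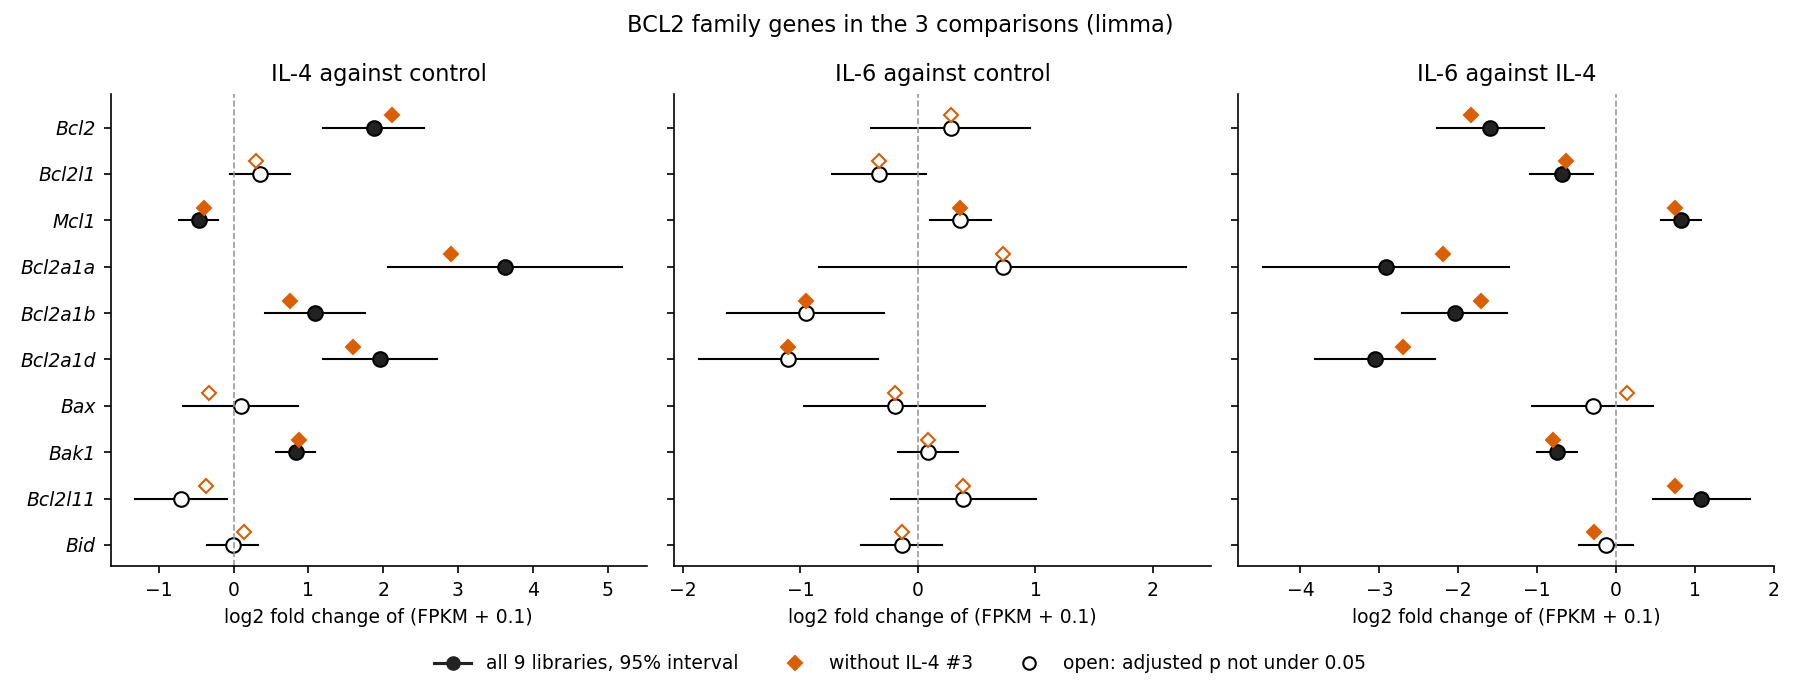
Log2 fold change of FPKM + 0.1 (x axis) of each member (rows) in the 3 comparisons. Circles with lines are the fit of all 9 libraries with the 95% interval, diamonds the fit without IL-4 #3, and filled symbols an adjusted p under 0.05. With IL-6 against Control no circle is filled, and the diamonds of Mcl1, Bcl2a1b and Bcl2a1d are.

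The third comparison set IL-6 against IL-4 directly. The cytokines share the Control libraries in the comparisons above, so this fit is the test of their difference. With IL-6, Mcl1 and Bcl2l11 were higher and Bcl2, Bcl2l1, Bak1 and all 3 Bcl2a1 copies were lower. This made 8 of 10 members, 2 higher and 6 lower, against 34.1% of all genes tested (20.8% higher and 13.3% lower). Of the 6 lower members, 3 are the near-identical Bcl2a1 rows. The median log2 fold change was -0.71 for the members and 0.22 for all genes, or 0.09 for all genes without IL-4 #3. Of the genes that passed, 61.05% were higher, against 57.11% without IL-4 #3 and 48.47% after median-ratio rescaling. Libraries did not overlap for the same 8 members, against 56.9% of all genes (36.3% higher and 20.6% lower).

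Mcl1 was 1.77 times as high with IL-6 as with IL-4 (log2 fold change 0.83, SE 0.113, adjusted p = 0.000855). The 3 Bcl2a1 rows showed the widest differences: -3.06 for Bcl2a1d (adjusted p = 0.000273), -2.92 for Bcl2a1a (adjusted p = 0.0124) and -2.05 for Bcl2a1b (adjusted p = 0.00112). Bcl2 was lower with IL-6 (-1.59, SE 0.295, adjusted p = 0.00429), as was Bcl2l1, whose 9.21 to 10.6 FPKM with IL-6 lay under its 15.3 to 17.4 with IL-4 (-0.68, SE 0.174, adjusted p = 0.0177). Bak1 was at 31.0 to 31.8 FPKM with IL-6 and at 49.5 to 56.6 with IL-4 (-0.74, SE 0.111, adjusted p = 0.00137). Bcl2l11 was 2.03 times as high with IL-6, at 21.7 to 22.3 FPKM against 6.50 to 13.8 (1.09, SE 0.269, adjusted p = 0.0159).

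Within 1 set of libraries, IL-6 #1 to #3 against IL-4 #2 and #3, these 8 members passed again, with log2 fold changes of 0.89 for Mcl1, -1.57 for Bcl2, -0.72 for Bcl2l1, -3.40 for Bcl2a1d, -0.69 for Bak1 and 1.29 for Bcl2l11. Without IL-4 #3 they passed too, Bcl2l11 at 0.75 and Bcl2a1d at -2.69, and Bid joined them (-0.28, adjusted p = 0.0375, against -0.13 and 0.508 with all libraries). The fit within 1 set includes IL-4 #3, and the fit without IL-4 #3 mixes the sets, so neither is free of both limits. Bax did not pass in either fit (-0.29, 95% interval -1.06 to 0.48, adjusted p = 0.501 with all libraries). Leaving out IL-6 #1 or #2 ended the call of Bcl2l1 (adjusted p = 0.0684 and 0.0517), and leaving out IL-6 #1 or #3 that of Bcl2l11 (0.0521 and 0.0517).

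The make-up of the pro-survival transcripts differed between the groups. The 6 pro-survival members summed to 336.4, 381.2 and 365.6 FPKM in Control, to 382.4, 433.7 and 615.4 with IL-4 and to 352.4, 391.7 and 378.8 with IL-6. Control and IL-6 overlapped, while each IL-4 library lay above Control. Mcl1 made up 71.7, 62.5 and 65.1% of that sum in Control, 49.3, 40.6 and 25.4% with IL-4, and in the IL-6 libraries 82.3, 81.4 and 82.6%. The Bcl2a1 copies made up 25.2 to 33.8%, 46.0 to 71.5% and 14.4 to 15.8%. Neither range overlapped between any of the 3 groups, IL-4 #3 left out or not. Mcl1 and the copies fill nearly all of the sum, so the share of Mcl1 falls as that of the copies rises. Bcl2l1 stayed between 2.61 and 4.23% and Bcl2 under 1% (0.125 to 0.881%) in every library. These shares are descriptions of transcripts per length, with no test, and they rest on the uncertain total of the Bcl2a1 rows.

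**Figure D3:**
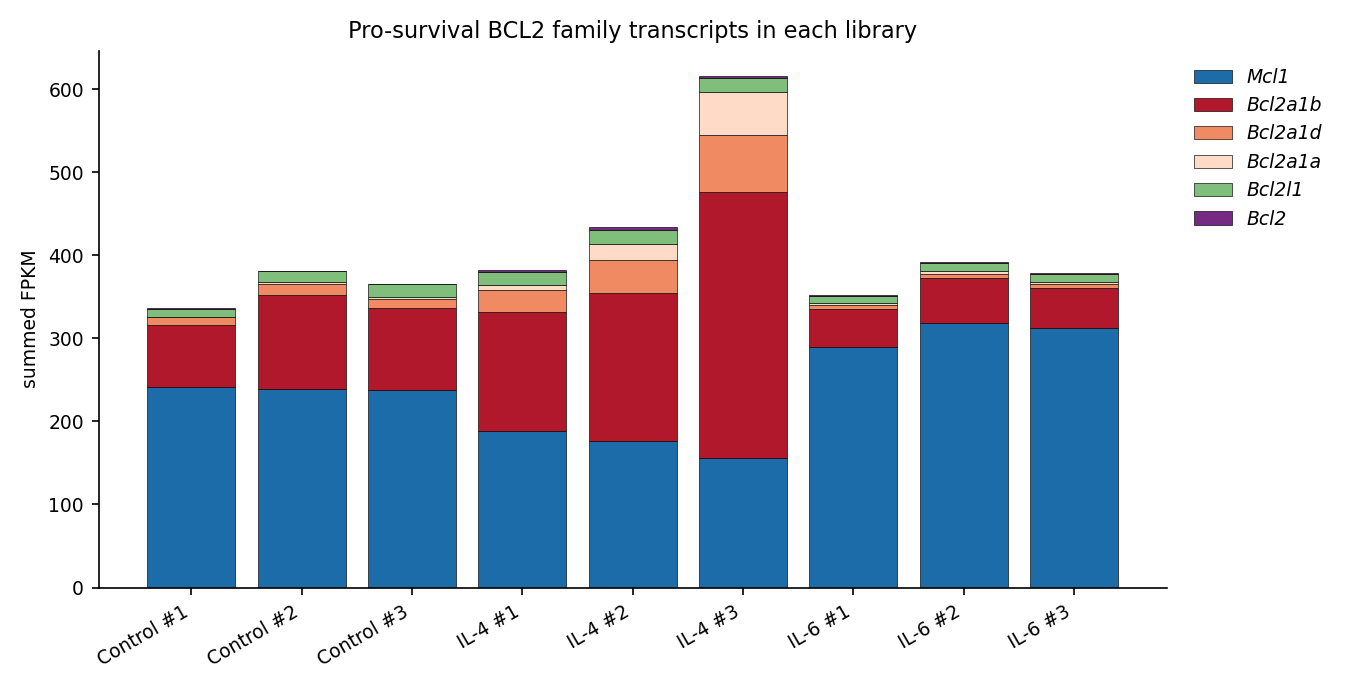
Summed FPKM (y axis) of the 6 pro-survival members in each of the 9 libraries, with 1 colour per gene. Mcl1 fills most of each Control and IL-6 bar, and the Bcl2a1 copies fill 46.0 to 71.5% of each IL-4 bar.

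**Figure D4:**
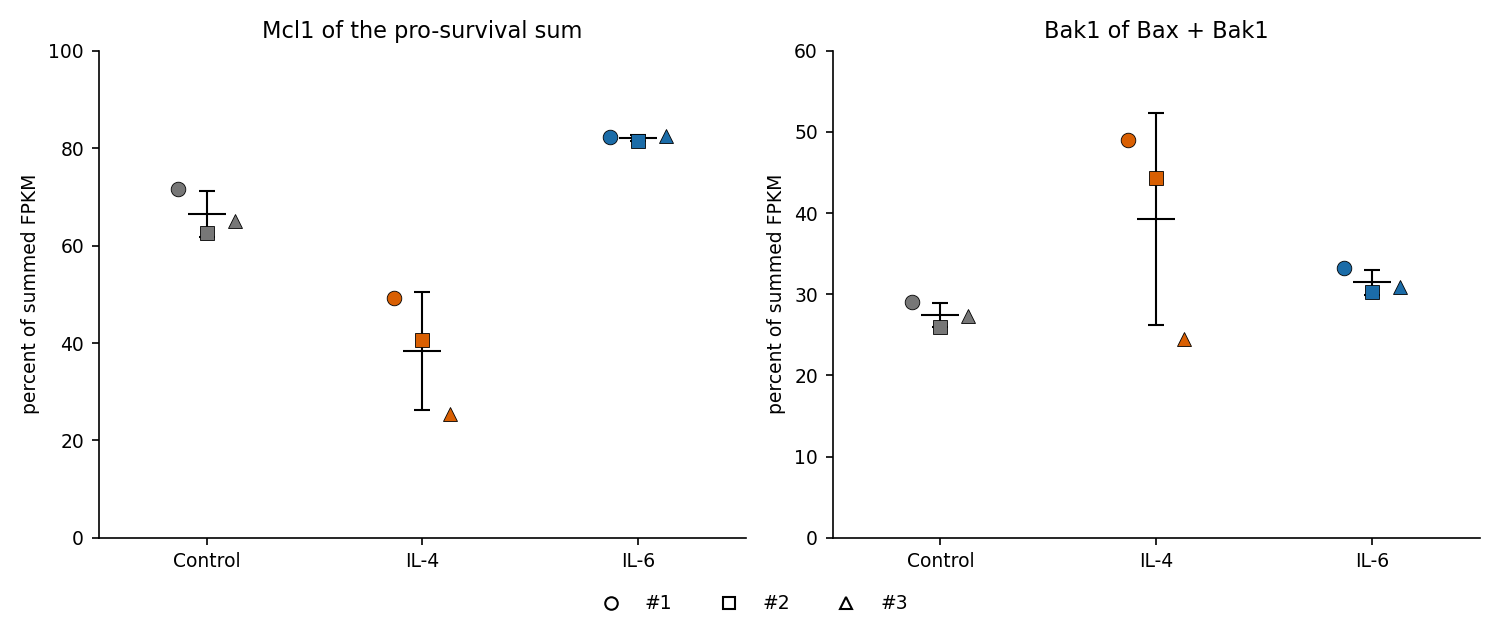
Percent of summed FPKM (y axes) held by Mcl1 among the 6 pro-survival members (left) and by Bak1 among Bax and Bak1 (right), with 1 symbol per library and bars for the mean and SD of 3. The groups are apart for Mcl1, and IL-4 #3 lies at 24.5% for Bak1, below Control.

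Beyond the 10 members, 7 lists held 47 other genes of the cell death pathway, of which 39 were tested. With IL-4, 7 were higher and 8 lower (median log2 fold change -0.21 beside -0.20 for all genes). With IL-6, 4 were higher and 1 lower (0.03 beside -0.00), and between IL-6 and IL-4 10 were higher and 8 lower (0.23 beside 0.22). In all, 15, 5 and 18 of 39 passed, beside 24.8%, 8.4% and 34.1% of all genes. The other 8 genes were under the filter, among them Bcl2l10, which was at 0 in every library.

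The BH3-only genes outside the members had 6 tested. With IL-4 1 was higher (Bnip3l) and 3 were lower (Pmaip1, Bmf and Bnip3), and with IL-6 2 were higher and none lower. Bmf, which senses loss of attachment, was at 6.25 to 10.4 FPKM in Control, at 0.544 to 1.41 with IL-4 and at 10.6 to 11.5 with IL-6 (log2 fold change with IL-4 -2.76, SE 0.344, adjusted p = 0.000782). Bnip3, a gene of hypoxia and mitophagy, was at 7.47 to 8.69 FPKM in Control, at 2.01 to 4.13 with IL-4 and at 21.6 to 22.4 with IL-6. It was lower with IL-4 (-1.26, adjusted p = 0.00854) and higher with IL-6 (1.46, adjusted p = 0.0108). Pmaip1, whose product NOXA binds MCL1 and A1, was at 6.36 to 7.52 FPKM in Control, at 2.37 to 4.5 with IL-4 and at 14.7 to 17.9 with IL-6 (1.22 with IL-6, SE 0.240, adjusted p = 0.0185). For these 3 genes the groups lay in the order IL-4, Control, IL-6, with no overlap. Over all genes tested, 40.3% did not overlap between IL-4 and Control and 43.2% between IL-6 and Control. Bmf was only just apart between Control and IL-6 and did not pass there (0.52, adjusted p = 0.4595).

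Among the other BCL2-like genes, Bok, a further effector, was at 0.0181 to 0.0779 FPKM in Control, at 1.34 to 3.05 with IL-4 and at 0.0156 to 0.0666 with IL-6. It was higher with IL-4 in all 3 libraries (3.78 on the log2(FPKM + 0.1) scale, which understates low genes, SE 0.406, adjusted p = 0.000337) and lower with IL-6 than with IL-4 (-3.91, adjusted p = 0.000197). Bcl2l12 was lower with IL-4 (1 of 3 tested). The only other pro-survival gene tested, Bcl2l2 (BCL-W), passed solely between IL-6 and IL-4 (0.88, adjusted p = 0.0465). It did so in 3 of 9 fits with 1 library left out (adjusted p of up to 0.122), and its value without IL-4 #3 was 0.53 (adjusted p = 0.0269). The further copy Bcl2a1c had 0 to 1 fragment in Control, 4 to 23 with IL-4 and 1 to 4 with IL-6 and was not tested.

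In the list of apoptosome and mitochondrial release genes, 3 of 10 were higher with IL-4 (Cycs, Vdac2 and Vdac3) and 1 lower (Htra2). Cycs, cytochrome c, was at 10.3 to 14.8 FPKM in Control, at 26.5 to 31.3 with IL-4 and at 11.4 to 13.2 with IL-6 (1.20 with IL-4, SE 0.151, adjusted p = 0.000774). Vdac3, a channel of the outer mitochondrial membrane, was at 10.5 to 13.6 FPKM in Control, at 17.1 to 40.1 with IL-4 and at 11.9 to 12.6 with IL-6 (1.10 with IL-4, SE 0.275, adjusted p = 0.0214). Aifm1, the mitochondrial oxidoreductase AIF, was at 9.63 to 11.2 FPKM in Control and at 7.21 to 8.18 with IL-6 (-0.46, adjusted p = 0.0443, and 0.0759 with the replicate number as a block). With 1 library left out, the call of Vdac3 with IL-4 could be lost (adjusted p of up to 0.0796). Of 5 executioner caspases and nuclease genes, Casp6 alone was higher with IL-4 (adjusted p = 0.0356, or 0.0512 under the replicate block) and none passed with IL-6.

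Of 7 inhibitor of apoptosis genes, Birc5 was higher and Birc3 lower with IL-4, and Birc3 was higher with IL-6. Birc3, encoding cIAP2, was at 12.2 to 17.6 FPKM in Control, at 3.19 to 7.67 with IL-4 and at 33.7 to 42.7 with IL-6. The groups did not overlap (log2 fold change with IL-4 -1.33, adjusted p = 0.0175, with IL-6 1.41, adjusted p = 0.0318, and between them 2.73, adjusted p = 0.000393). The calls of Birc3 against Control could be lost with 1 library left out (adjusted p of up to 0.0680 with IL-4 and 0.128 with IL-6). In the death receptor arm 2 of 7 were lower with IL-4 (Fas and Fadd) and 1 was higher with IL-6 (Fas). Fas, the receptor of Fas ligand, which was singled out after its values were seen, was at 7.07 to 8.37 FPKM in Control, at 3.28 to 3.65 with IL-4 and at 16.6 to 18.4 with IL-6 (1.22 with IL-6, adjusted p = 0.000690). Of the 5 genes that passed with IL-6, Fas was the only one that did so with each library left out in turn, and none passed when the library set was a term.

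**Figure D5:**
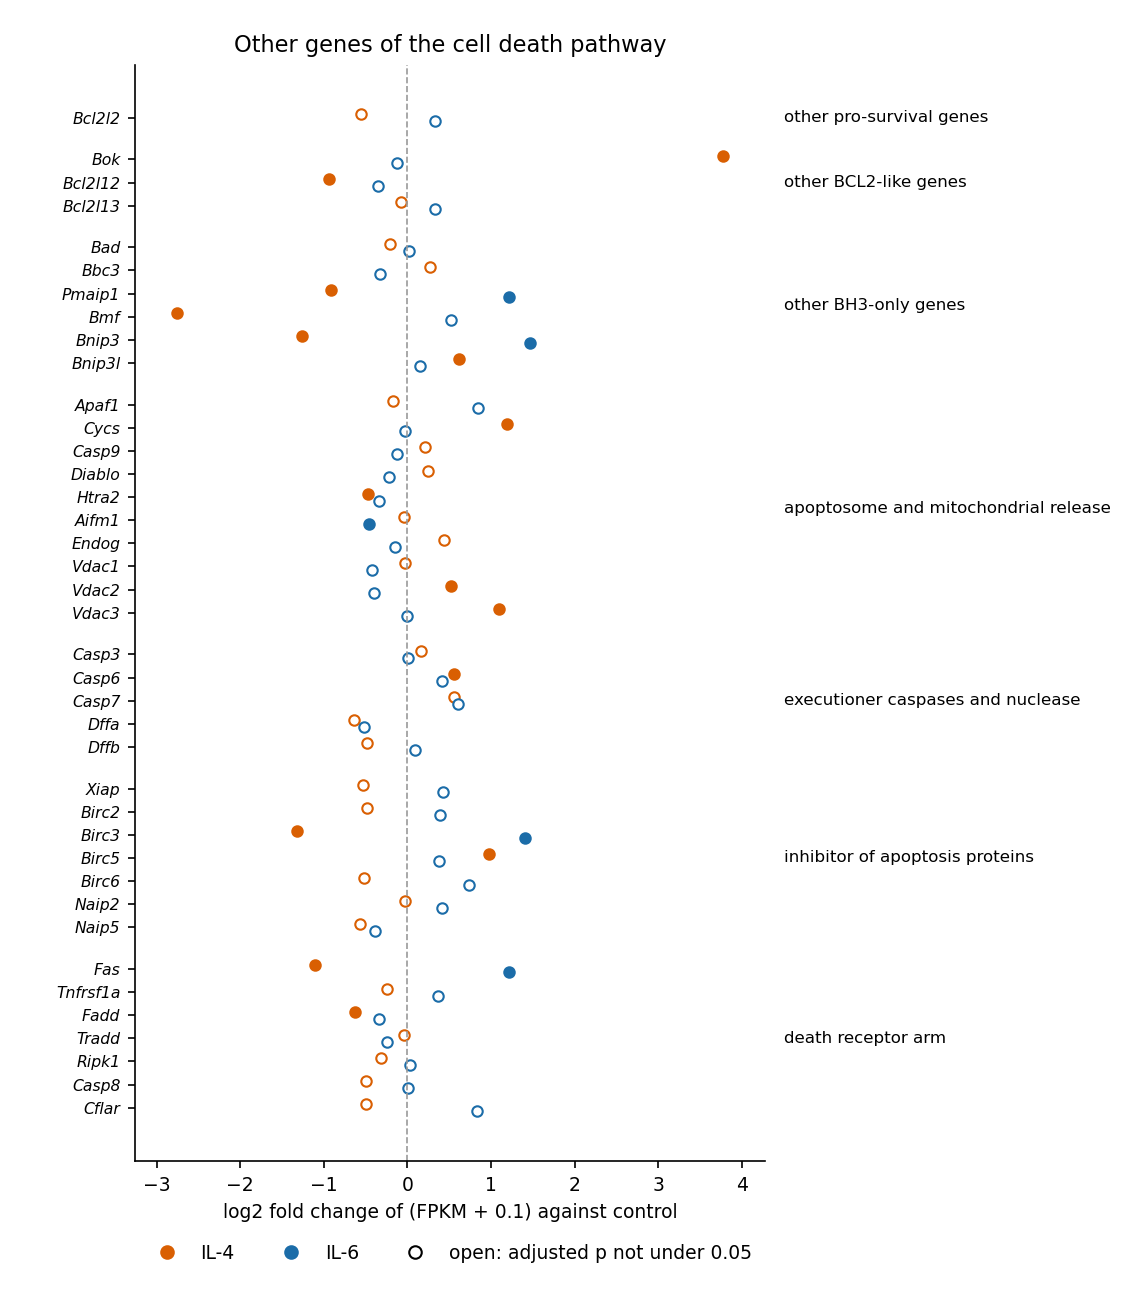
Log2 fold change of FPKM + 0.1 against Control (x axis) of the 39 other cell death genes tested, grouped by list. Orange is IL-4, blue IL-6, and filled symbols have an adjusted p under 0.05. Bok (3.78) and Bmf (-2.76) lie farthest out with IL-4, and Bnip3, Birc3, Pmaip1 and Fas lie on opposite sides of 0 with the 2 cytokines.

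For each member, the 2 genes with the nearest course over the 9 libraries were found by the root mean square difference of their mean-centred log2 values. They were Sept11 and Pfkp for Bcl2 (difference 0.199 and 0.207), Phgdh and Chchd10 for Bcl2a1a (0.223 and 0.383), Mrps28 and Mrps6 for Bcl2a1b (0.101 and 0.147) and Il11ra1 and Npy for Bcl2a1d (0.214 and 0.242). No copy of Bcl2a1 was thus among the 2 nearest genes of another copy. Those of Mcl1 were Lrp10 and Msl1 (0.0603 and 0.0687), those of Bcl2l1 Pa2g4 and Tubb5 (0.0904 and 0.1003) and those of Bak1 Golt1b and Nudcd2 (0.0813 and 0.0850). Rpl7 and Cuedc2 were nearest to Bax (0.0461 and 0.0545), Alkbh5 and Pik3r5 to Bcl2l11 (0.0503 and 0.0603) and Arl1 and Ddx54 to Bid (0.0641 and 0.0648). The libraries share IL-4 #3 in every such course, and likeness is a description only.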

How the data were processed

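RNA of 9 libraries was sequenced from stranded mRNA preparations. The authors aligned reads to GRCm38 with STAR 2.4.2a and deposited FPKM per gene from Cufflinks 2.2.1 with GENCODE M5 genes. Identifiers were matched without version to GENCODE M21 (53274 of 53379). Values of up to 200 fragments were whole fragments within 0.05 in 100.0% of 109708 cases. Promoter windows are from RefSeq.

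Genes whose mean reached 0.5 FPKM were tested with limma 3.58.1 (R 4.3.3; moderated, trend and robust) on log2(FPKM + 0.1), all 9 libraries in one fit, with two-sided Benjamini-Hochberg adjusted p-values, after a test on simulated data. The members and the pathway and marker lists were chosen with earlier results of these data known. Of the lists, up to 3 genes per direction with the largest change and no overlap were named, and 2 nearest genes per member. The labels name 3 mice and number libraries 1 to 3, which was taken as the mouse. Alternatives changed the pseudocount, filter, scaling, libraries or model. Deviations of same-numbered libraries correlated at 0.521, -0.415 and 0.0777 (Control and IL-4), 0.408, 0.201 and 0.166 (Control and IL-6) and 0.281, -0.0612 and 0.153 (IL-4 and IL-6). Libraries of different numbers correlated at up to 0.584 (Control #2 and IL-4 #3), so these values cannot show whether the numbers mark mice. Where numbers are not mice, p-values measure only the spread between cultures.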

Additional observations from a re-analysis of the deposited data

How the results depend on the processing

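Of the members' fold changes larger than their SE, 1 reversed under an alternative: Bcl2a1a, IL-6 against Control, at -1.53 (adjusted p = 0.300) when the library set was a term, where the set rests on 1 IL-4 library against 2. Smaller ones changed sign too. Bax with IL-4 (0.10) was at -0.41 with the set term, -0.33 without IL-4 #3, -0.06 after quantile normalization, -0.04 without Control #1 and -0.31 (adjusted p = 0.0468) under the block with IL-4 #3 left out, and against IL-6 it changed sign in the fits without IL-4 #3. Bid with IL-4 (-0.01) was at up to 0.19 (median-ratio rescaling), and with IL-6 at 0.14 with the set term. For IL-4 against Control, 3186 genes passed, 1839 at a mean FPKM of at least 5 (fewer genes tested; Bcl2 then drops out), 1796 with only those groups, 1367 with the set term, 1784 at a log2 fold change of 1 or more in size, and 2026 to 4848 with 1 library left out (2026 without Control #3 and 4848 without IL-4 #3). The members passing were 2 with the set term and 4 to 7 with 1 library left out, and the pathway genes (15) were 7 with only those groups, 8 with the set term, 7 at that fold and 9 to 22. For IL-6 against Control, 1077 genes passed, 628 at a mean of at least 5, 2822 with only those groups, 187 with the set term, 690 at that fold, 1835 with length and GC trends removed (added after seeing the data) and 462 to 3168 with 1 library left out (3168 without IL-4 #3). Members passing were 0, but 2 with those trends removed, 1 without moderation, 3 with only those groups, 2 after quantile normalization and 0 to 3 with 1 left out (3 without IL-4 #3). Pathway genes (5) were 8, 3 by voom, 3 without a filter, 17 with only those groups, 9 after quantile normalization, 0 with the set term and 1 to 18. For IL-6 against IL-4, 4375 genes passed, 2479 at a mean of at least 5, 2777 within 1 set, 2613 at that fold and 2911 to 5544 with 1 left out. Members (8) were 5 at that fold and 6 to 9, and pathway genes (18) were 9 and 10 to 22. The summed Bcl2a1 means ranged over 97.9 to 120.0, 206.8 to 338.9 and 53.4 to 58.1 FPKM in Control, IL-4 and IL-6 with 1 library left out. In the comparison of IL-4 with Control, Bcl2a1b also missed the threshold without a filter (adjusted p = 0.0530), without moderation (0.0580) and without Control #1 or #3 (0.0965 and 0.0724). With only those groups, Bcl2a1b missed it too (adjusted p = 0.0869). The causes were not tested.

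With the replicate number as a block, 6, 0 and 8 members passed in the 3 comparisons, on 3023, 908 and 4463 genes, and the pathway lists had 14, 4 and 18; no call of a member changed. Beside Aifm1 and Casp6, the block ended the call of Vdac1 (adjusted p = 0.0553) and made that of Apaf1 (0.0395) between IL-6 and IL-4, and it changed no other call of these lists. The block with IL-4 #3 left out (added after seeing the data) gave 5011 and 3887 genes in the comparisons with Control, 8 members and 22 pathway genes with IL-4, and 4 members and 19 pathway genes with IL-6. The members gained with IL-4 were Bax (above) and Bcl2l11 (-0.38, adjusted p = 0.0398). Bcl2a1a rests on 21 to 55 fragments per Control library, which limits its fold change.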
